A study of Rattus norvegicus with 2 samples.

Results

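Transcripts of 37 interferon-stimulated genes were followed in single cells of the rat hypothalamus. The genes were taken as a named list, which was matched by symbol to the 32883 genes counted in both libraries, and all 37 were found. Of these, 35 had at least 50 UMIs (unique molecular identifiers, each standing for 1 captured transcript) over both libraries and were compared between them. *Tap2*, with 5 and 4 UMIs, and *Zbp1*, with 0 and 1 UMIs, stayed under that minimum. The list covers 19 antiviral effectors, regulators and RNA sensors, here called antiviral genes, and 18 others. It was chosen with earlier results of these data known, so shares of members set beside those of all genes are descriptive only.

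Hypothalamic tissue with the anteroventral periventricular nucleus (AVPV) and the arcuate nucleus (ARC) was taken from female Sprague Dawley rats at PND 29, which the labels give as 4 weeks of age. In SC300 rats a silicone capsule loaded with EB (estradiol benzoate, 300 µg) had been in place from PND 0.5, whereas Control rats are described as intact in the labels and as carrying a capsule with sesame oil in the methods. The design text of the series gives the oil capsule the name SC300, and the sample labels, in which EB and 300 mark the treated library, were followed. Tissue of 3 rats was pooled for each condition and gave 1 library each, so rats cannot be told apart, no test was possible, and the difference between the libraries has no replicate check. All intervals are exact 95% intervals of counting error only.

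Interferons are secreted proteins that cells release on contact with viral nucleic acid. Type I interferons bind a receptor whose JAK kinases switch on a complex that contains STAT2 and IRF9, and this complex binds the interferon-stimulated response element (ISRE) in the promoters of many genes, whereas interferon gamma acts at the gamma-activated site (GAS). The induced proteins block viral entry, degrade or bind viral RNA, present peptides on MHC class I, and feed back on the pathway itself. In brain, endothelial cells and microglia are known to hold many of these transcripts at rest.

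The promoters are shown first, because the members were grouped by a shared pathway and the response element is the sequence that pathway reads. The RefSeq promoter table (build GRCr8, 250 bases before to 50 bases after the gene start) held 29 of the 37 genes by symbol, and *Isg15*, *Ifit1*, *Ifit2*, *Mx2*, *Usp18*, *Rtp4*, *Ddx58* and *Zbp1* were not matched. The ISRE letters GAAA-NN-GAAA, searched on both strands, occurred in 20 of 29 promoters (69.0%) and in 3.92% of the 33469 promoters of the table. The GAS letters TTCNNNGAA, also searched on both strands, occurred in 8 of 29 (27.6%) against 8.87% of all promoters, and 22 of 29 held either motif. A match describes the letters of this window and is not evidence of a bound site. Stretches around the matches of some of the genes described below follow, chosen with their values known, 5′ to 3′ on the strand of the gene, with ISRE matches in capitals (TTTC-NN-TTTC is the same motif on the other strand).
Ifi27, chr6:128355112-128355271, plus strand: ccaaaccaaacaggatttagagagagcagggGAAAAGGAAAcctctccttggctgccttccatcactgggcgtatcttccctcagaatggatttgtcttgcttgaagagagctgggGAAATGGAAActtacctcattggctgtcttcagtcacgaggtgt
Ifit3, chr1:241527257-241527316, plus strand: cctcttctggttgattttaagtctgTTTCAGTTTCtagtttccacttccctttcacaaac
Rsad2, chr6:48788233-48788292, minus strand: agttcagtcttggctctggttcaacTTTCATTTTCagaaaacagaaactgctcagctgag
Ifi44, chr2:243303841-243303900, minus strand: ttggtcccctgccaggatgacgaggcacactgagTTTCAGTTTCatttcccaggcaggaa
Irf7, chr1:205800058-205800117, minus strand: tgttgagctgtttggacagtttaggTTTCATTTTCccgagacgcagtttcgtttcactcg
Oas1a, chr12:41330406-41330465, plus strand: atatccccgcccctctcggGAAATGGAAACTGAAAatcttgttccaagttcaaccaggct
Ifitm3, chr1:205541768-205541827, minus strand: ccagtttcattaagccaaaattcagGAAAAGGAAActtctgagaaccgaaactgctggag
Ifitm2, chr1:205482349-205482408, minus strand: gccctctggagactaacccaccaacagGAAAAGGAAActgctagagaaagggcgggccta
Parp14, chr11:78408033-78408092, plus strand: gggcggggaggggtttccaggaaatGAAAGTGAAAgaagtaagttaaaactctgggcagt

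In these stretches *Ifi27* carried 2 separate ISRE matches and *Oas1a* carried 2 that overlap. The ISRE was matched both in genes that were lower in SC300, such as *Ifi27*, *Ifit3* and *Rsad2*, and in *Ifitm2*, which was not lower over all cells. *Irf1* and *Irf9* held a GAS match and no ISRE match, and 7 genes, among them *Stat2*, *Parp9*, *Psmb9*, *Cmpk2* and *Trim25*, held neither.

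After barcodes with under 200 detected genes were left out, 4296 Control and 4379 SC300 cells remained, with 51382276 and 56390355 UMIs and a median of 7986 and 8182 UMIs per cell. Cells were sorted by marker genes into 12 classes, which held 3558 Control and 3730 SC300 cells (82.8% and 85.2%). The class names are rebuilt from markers, carry the ending -like, and the scoring behind them was set with the data in view. A further 614 and 546 cells met no class, and 124 and 103 haemoglobin-rich barcodes were kept apart. No doublet caller was run, and 9 barcode sequences occurred in both libraries. The classes differed in purity: mural-like cells, with a median of 110 UMIs of their own markers, also held a median of 95.5 UMIs of the endothelial markers. Tanycyte-like cells numbered 115 and 79, and the count of macrophage-like cells rested on 15 and 44 cells, which limits the precision of both.

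Over all cells the 37 genes summed to 48664 UMIs in Control (947 CPM, the UMIs of a gene scaled to a total of 1000000 UMIs) and 37109 UMIs in SC300 (658 CPM). *Ifi27* alone held 50.9% of them in Control and 34.6% in SC300, at 482 and 228 CPM. Without *Ifi27* the sums were 23892 and 24275 UMIs. These are not scaled: the libraries held 51382276 and 56390355 UMIs, so in CPM the sum without *Ifi27* was also lower in SC300. Most of the difference in the sum was therefore that of a single gene. With a call set at 1.5-fold, 4 of 35 genes were lower in SC300 (*Ifi27*, *Ifit1*, *Ifit3* and *Rsad2*), where 3.75% of all 14201 genes with 50 UMIs were. *Oasl* alone was higher, where 2.77% of all genes were. The difference in log2 CPM, SC300 minus Control, here called the log2 difference, was below 0 for 28 of the 35, with a median of −0.19, and the median over all genes was −0.04.

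*Ifi27* encodes a small membrane protein of mitochondria and endoplasmic reticulum that is widely used as a readout of interferon exposure. Its UMIs numbered 24772 in Control and 12834 in SC300, or 482 and 228 CPM, a log2 difference of −1.08 (−1.11 to −1.05). Cells with at least 1 *Ifi27* UMI made up 71.2% of the Control and 47.7% of the SC300 library, and 47.3% and 26.5% after each cell was thinned to 2000 UMIs. Fewer cells thus had a detected *Ifi27* UMI at equal depth. The detected share falls with the level itself, so it does not tell whether fewer cells carried the transcript. The ratio ran from −1.11 to −0.96 over all alternatives tried, among them equal weight for every class.

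The size of the *Ifi27* difference varied between classes and was greatest in mature oligodendrocyte-like and oligodendrocyte precursor-like cells. Oligodendrocyte precursor-like cells held 704 *Ifi27* UMIs in Control (319 CPM) and 45 in SC300 (19.2 CPM), a log2 difference of −4.05 (−4.52 to −3.61), and the share of cells with a UMI was 70.8% and 8.77%. In mature oligodendrocyte-like cells, the myelinating cells, 1371 UMIs (179.7 CPM) stood against 106 (10.1 CPM), a log2 difference of −4.15 (−4.45 to −3.87), with the transcript in 67.2% and 6.84% of cells. Newly formed oligodendrocyte-like cells, an intermediate of the same lineage, held 89 and 18 UMIs, a log2 difference of −2.49 (−3.31 to −1.75).

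In the SC300 mature oligodendrocyte-like cells 66.0% of the *Ifi27* UMIs lay in 3 cells, and without the 3 top cells of each library the log2 difference was −5.58. In this class it was smaller, −3.62, without cells that carried markers of a second class, and −3.92 by profile assignment. Without cells that carried markers of a second class the ratio in precursor-like cells was −4.76, and with a stricter gate the ratio in newly formed oligodendrocyte-like cells was −3.13. For comparison, barcodes under 200 detected genes, of which 84.0% and 85.3% of UMIs other than haemoglobin were mitochondrial, held 2 and 4 *Ifi27* UMIs (5.47 CPM, 0.662 to 19.8, and 10.1 CPM, 2.76 to 26.0, of these UMIs). With so few UMIs and a total of another make-up, these levels are not a floor for the classes.

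Tanycyte-like cells, the cells that line the floor of the third ventricle, had 863 *Ifi27* UMIs in Control (564 CPM) and 107 in SC300 (70.0 CPM), a log2 difference of −3.01 (−3.31 to −2.72). Assignment of every cell to its best-matching expression profile enlarged this class to 309 and 189 cells and gave a log2 difference of −1.87, so the direction held and the size depended on which cells were counted. Ependymal-like cells, the ciliated cells of the ventricle wall, had 736 and 190.1 CPM, a log2 difference of −1.95 (−2.12 to −1.79). Endothelial markers stood beside this at 174 CPM in Control and 52.3 CPM in SC300 ependymal-like cells, and at 358 and 252 CPM in tanycyte-like cells. Mural markers were at 100.5 and 86.1 CPM in ependymal-like and at 584 and 1177 CPM in tanycyte-like cells, and the part of either list in the result was not tested. The mural list includes *Tagln*, which was among the leading genes of the tanycyte-like class itself. In tanycyte-like cells the list is therefore not a measure of mural RNA alone. Neuron-like cells had low levels, 90.8 and 16.6 CPM, with a log2 difference of −2.45 (−2.67 to −2.23).

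In astrocyte-like and microglia-like cells, which are more numerous, the difference was smaller and precise. *Ifi27* stood at 465 and 248 CPM in astrocyte-like cells, a log2 difference of −0.91 (−0.98 to −0.83), and at 488 and 184 CPM in microglia-like cells, a log2 difference of −1.41 (−1.54 to −1.28). Endothelial-like cells had the highest level in both libraries, 2159.8 CPM in Control and 1239 CPM in SC300, with a log2 difference of −0.80 (−0.87 to −0.74). The transcript was nevertheless found in 99.0% and 96.1% of these cells. Mural-like cells followed with 1682 and 1155 CPM and stromal-like cells with 932 and 651 CPM, and both stayed under 1.5-fold. The stromal-like log2 difference of −0.52 was 0.01 by profile assignment, −0.08 without cells that carried markers of a second class and −0.38 with the stricter gate. In macrophage-like cells the interval of the log2 ratio, −0.34 (−0.73 to 0.06), included 0. The macrophage-like ratio was −0.02 without the 3 top cells of each library, −0.08 by profile assignment and −0.78 with the stricter gate.

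*Ifi27* was thus at least 1.5-fold lower in 9 of 12 classes, and the interval lay below 0 in 11. In Control the order ran from endothelial-like over mural-like, stromal-like, ependymal-like, macrophage-like, tanycyte-like, microglia-like, astrocyte-like, oligodendrocyte precursor-like, mature oligodendrocyte-like and neuron-like to newly formed oligodendrocyte-like cells. Neighbours with overlapping intervals were ependymal-like with macrophage-like, macrophage-like with tanycyte-like, microglia-like with astrocyte-like, and neuron-like with newly formed oligodendrocyte-like cells. In SC300 the order was endothelial-like, mural-like, stromal-like, macrophage-like, astrocyte-like, ependymal-like, microglia-like, tanycyte-like, oligodendrocyte precursor-like, neuron-like, newly formed and mature oligodendrocyte-like. There the first pair overlapped, as did ependymal-like with microglia-like cells and each neighbouring pair of the last 4 classes. Outside the classes, *Ifi27* was at 797 and 486 CPM in the cells that met no class. Its relative *Ifi27l2b*, with 870 and 859 UMIs over all cells, had a log2 difference of −0.15 (−0.29 to −0.01).

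**Figure D1:**
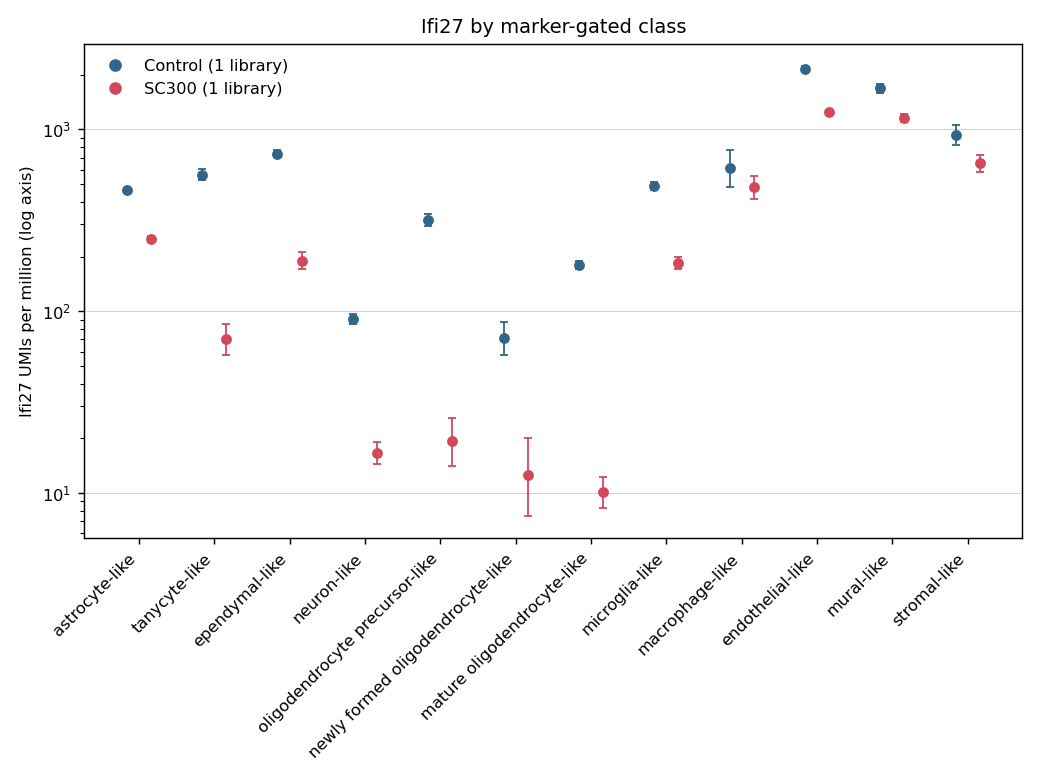
*Ifi27* in CPM (log axis) in the 12 classes of the Control and the SC300 library, with exact 95% Poisson intervals. All 12 SC300 points lie below their Control points, from a log2 difference of −4.15 in mature oligodendrocyte-like cells to −0.34 in macrophage-like cells.

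Of the 444 combinations of a member and a class, 145 had at least 50 UMIs, from 29 members. Among these, 33 were at least 1.5-fold lower in SC300 (4.28% of all gene and class combinations were) and 10 were at least 1.5-fold higher (3.75% of all were), and the log2 difference was below 0 in 102. *Ifi27* gave 9 of the 33. The remaining 24 belonged to 16 genes, of which *Isg15* was lower in 4 classes and the rest in fewer.

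**Figure D2:**
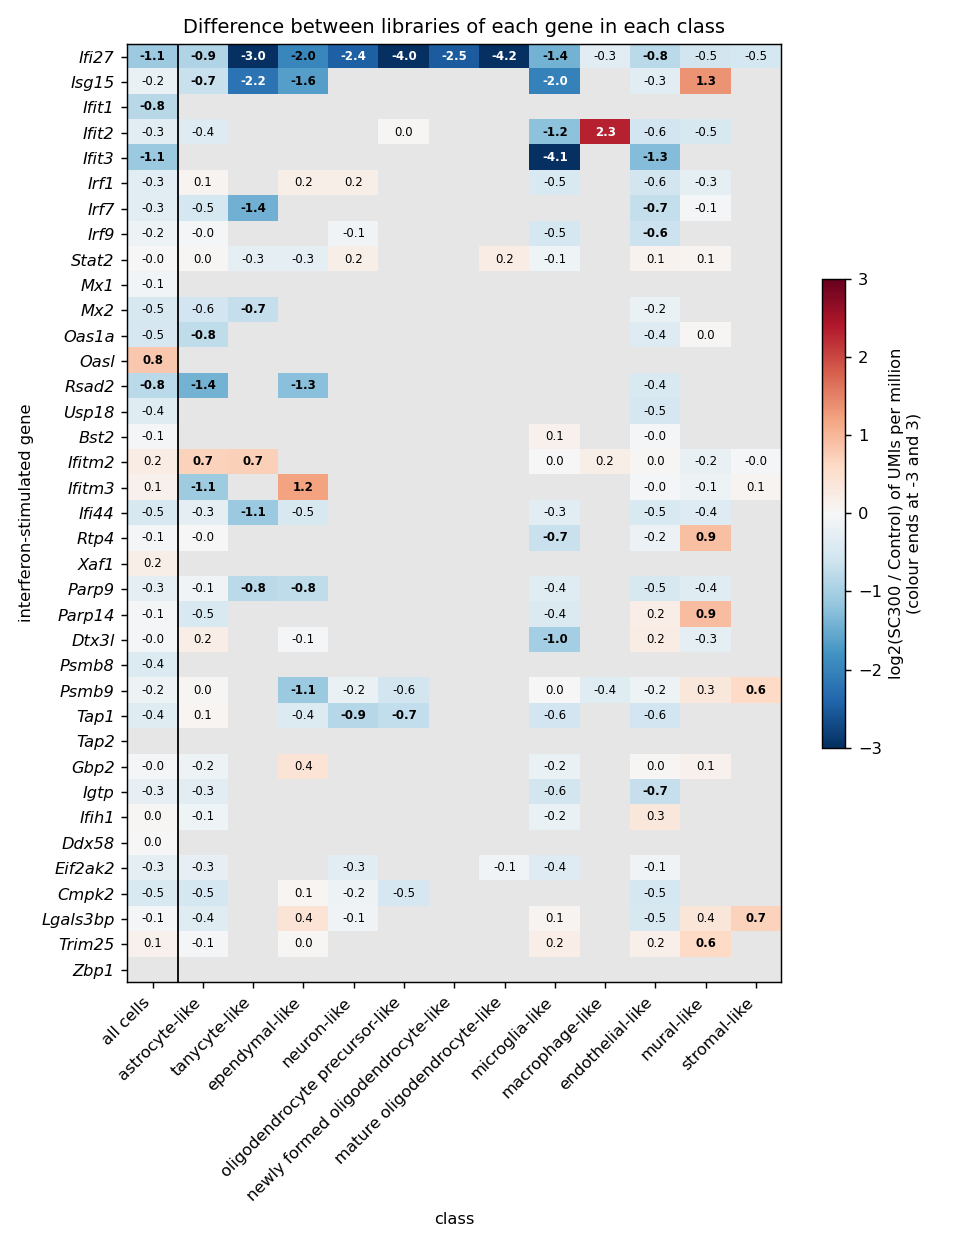
Log2 ratio of SC300 over Control for each of the 37 genes, over all cells and in the 12 classes. Grey fields had under 50 UMIs, bold values are at least 1.5-fold apart, and the *Ifi27* line is negative in all 12 classes while *Isg15*, *Ifit2*, *Ifitm3* and *Rtp4* hold bold values of both signs.

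*Isg15*, a ubiquitin-like protein that is joined to other proteins after interferon exposure, differed in direction between classes. Over all cells it had 1558 and 1498 UMIs, a log2 difference of −0.19, and 0.03 when every class was given the same weight. In microglia-like cells 151 UMIs in Control stood against 38 in SC300, a log2 difference of −2.03 (−2.58 to −1.51). The same number of cells, 26 in each library, held these UMIs, and 69.5% of the Control UMIs lay in 3 cells. Without the 3 top cells of each library the log2 difference was −0.92.

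In tanycyte-like cells *Isg15* had 79 and 17 UMIs, a log2 difference of −2.22 (−3.07 to −1.45), from 13 and 6 cells. In ependymal-like cells it had 57 and 12 UMIs, a log2 difference of −1.65 (−2.68 to −0.74), from 10 and 5 cells. In both classes 3 cells held most of the UMIs of either library (78.5% and 82.4% in tanycyte-like, 78.9% and 83.3% in ependymal-like cells), so these values describe few cells. With every cell weighted alike they were −3.89 and −3.64. Astrocyte-like cells had 469 and 326 UMIs, a log2 difference of −0.68 (−0.88 to −0.47), which was between −0.44 and −0.27 under 5 alternatives, −0.27 being the value without cells that carried markers of a second class. Endothelial-like cells, where the Control level was highest at 156 CPM, had a log2 difference of −0.33 (−0.55 to −0.11). Mural-like cells went the other way with 81 and 276 UMIs, a log2 difference of 1.34 (0.98 to 1.71). A single SC300 cell held 129 of the 276 UMIs, and without the 3 top cells of each library the log2 difference was 0.01, while the stricter gate gave 0.41.

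*Ifit1*, *Ifit2* and *Ifit3* encode tetratricopeptide proteins that bind viral RNA. *Ifit3* had 383 and 193 UMIs over all cells, 7.45 and 3.42 CPM, a log2 difference of −1.12 (−1.38 to −0.87). In microglia-like cells 137 Control UMIs from 11 cells stood against 8 SC300 UMIs from 6 cells, a log2 difference of −4.14 (−5.38 to −3.12). A single Control microglia-like cell held 74 of the 137, and without the 3 top cells of each library the log2 difference was −3.46. In endothelial-like cells *Ifit3* had 145 and 60 UMIs from 47 and 39 cells, a log2 difference of −1.31 (−1.76 to −0.86), or −0.68 without the 3 top cells of each library and −0.73 by profile assignment. In tanycyte-like, ependymal-like and newly formed oligodendrocyte-like cells no *Ifit3* UMI was counted in either library, which allows up to 3 UMIs in each.

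*Ifit2* was spread over more cells than *Ifit3*. It had 880 and 772 UMIs over all cells, a log2 difference of −0.32 (−0.46 to −0.18). In microglia-like cells 262 and 114 UMIs came from 54 and 49 cells, a log2 difference of −1.24 (−1.57 to −0.92). Of the 262 Control UMIs, 129 lay in 3 cells, 1 of which held 62. Without the 3 top cells of each library the log2 difference was −0.97, and without cells that carried markers of a second class it was −0.86. In oligodendrocyte precursor-like cells *Ifit2* was at 32.1 and 32.9 CPM, a log2 difference of 0.04 (−0.45 to 0.52), from 59 cells in each library. The same cells had the second greatest *Ifi27* difference of all classes, so the values of these 2 members lay far apart there. In macrophage-like cells 3 Control UMIs from 2 cells stood against 47 SC300 UMIs from 17 cells, a log2 difference of 2.31 (0.67 to 4.63). Of the 47 UMIs, 59.6% lay in 3 cells, and without the 3 top cells of each library the log2 difference was 0.69. In this class 19.2% of all measured genes were at least 1.5-fold higher in SC300. *Ifit1* was scarce, with 39 and 24 UMIs and a log2 difference of −0.83 (−1.63 to −0.06), which was 0.12 when every class was given the same weight.

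*Rsad2* encodes viperin, an enzyme that makes a chain-terminating nucleotide, and *Cmpk2*, its neighbour on chromosome 6, encodes a mitochondrial nucleotide kinase. *Rsad2* had 504 and 316 UMIs over all cells, 9.81 and 5.60 CPM, a log2 difference of −0.81 (−1.02 to −0.60), which was −0.55 when every class was given the same weight. In astrocyte-like cells it had 165 and 69 UMIs from 41 and 31 cells, a log2 difference of −1.41 (−1.84 to −0.99). Of the Control UMIs 58.8% lay in 3 cells, 1 of which held 65. Without the 3 top cells of each library the log2 difference was −0.92, and without cells that carried markers of a second class it was −0.80. In ependymal-like cells 47 and 13 UMIs gave a log2 difference of −1.26 (−2.27 to −0.35), which was −2.14 with every cell weighted alike. *Cmpk2* had 875 and 702 UMIs over all cells, a log2 difference of −0.45. It stood out by its place: it was highest in ependymal-like cells of both libraries, at 92.4 and 96.6 CPM, a log2 difference of 0.06 (−0.22 to 0.34), against 20.3 CPM in endothelial-like cells, the next class in Control. No other member had its highest level in ependymal-like cells in Control.

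**Figure D3:**
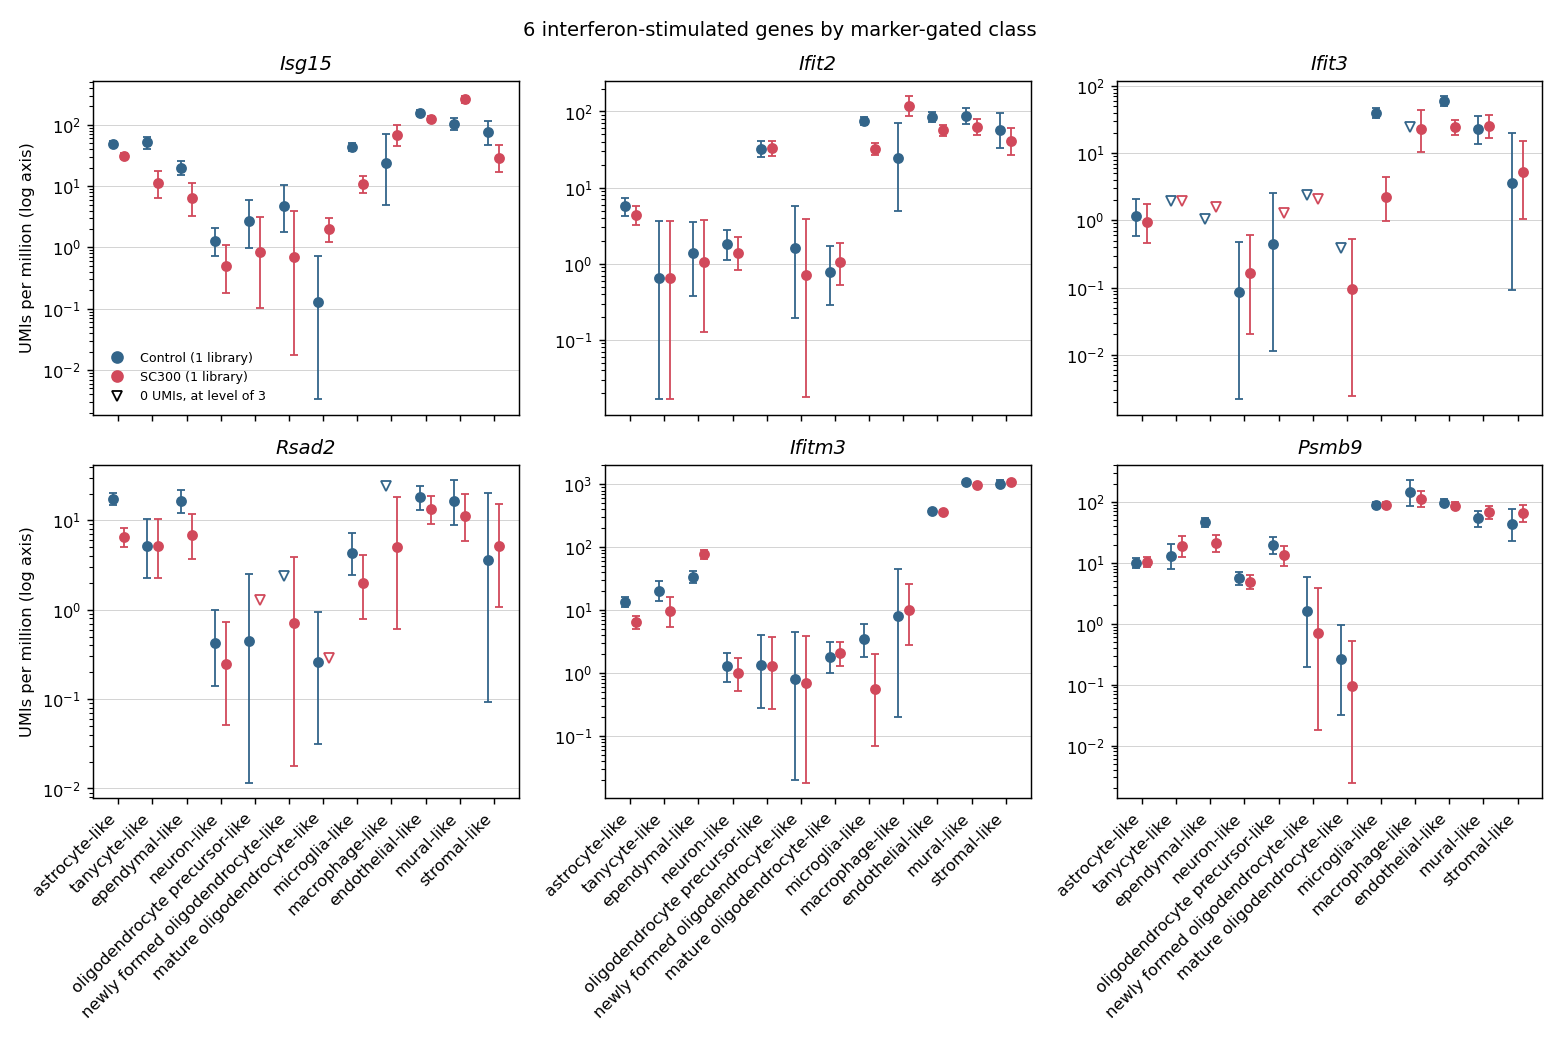
CPM (log axis) of *Isg15*, *Ifit2*, *Ifit3*, *Rsad2*, *Ifitm3* and *Psmb9* in the 12 classes of both libraries, with exact 95% Poisson intervals and triangles at the level of 3 UMIs where none was counted. *Ifit3* in microglia-like cells is at 39.7 CPM in Control and 2.26 CPM in SC300, whereas *Isg15* in mural-like cells is at 103 and 261 CPM.

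The oligoadenylate synthetases activate an RNase that degrades viral RNA, and the Mx proteins are dynamin-like GTPases that trap viral particles. *Oas1a* had 488 and 375 UMIs over all cells, a log2 difference of −0.51 (−0.71 to −0.32), and −0.77 (−1.33 to −0.22) in astrocyte-like cells. The astrocyte-like value was −0.32 without cells that carried markers of a second class, −0.35 without the 3 top cells of each library, −0.40 with the stricter gate and −0.45 with every cell weighted alike, all under 1.5-fold. *Mx2* had 367 and 289 UMIs, a log2 difference of −0.48 (−0.71 to −0.25), and −0.72 in tanycyte-like cells, where the interval (−1.60 to 0.12) included 0. *Mx1*, with 54 and 56 UMIs, had a log2 difference of −0.08 (−0.65 to 0.48), and 0.90 when every class was given the same weight. *Oasl* was the gene that was higher, with 41 and 79 UMIs, a log2 difference of 0.81 (0.25 to 1.39). Its UMIs were thin in every class, with at most 14 in any class of either library, so no class was compared. Near-identical copies exist in the Oas, Ifit and Ifitm families, and how reads shared by copies were counted is uncertain here.

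*Usp18*, the protease that removes *Isg15* and damps the receptor, had 200 and 171 UMIs, a log2 difference of −0.36 (−0.66 to −0.06), and −0.80 when every class was given the same weight. *Ifi44*, a cytoplasmic protein induced by interferon, had 1066 and 838 UMIs, a log2 difference of −0.48 (−0.61 to −0.35). The log2 ratio of *Ifi44* was below 0 in all 6 classes with 50 UMIs and was lowest in tanycyte-like cells, at −1.11 (−1.98 to −0.29), from 41 and 19 UMIs, or −2.14 with every cell weighted alike. *Rtp4*, a protein of the receptor transporter family, differed by −0.05 over all cells, by −0.66 (−1.26 to −0.07) in microglia-like cells with 63 and 41 UMIs, and by 0.91 (0.07 to 1.81) in mural-like cells with 17 and 43 UMIs. Profile assignment gave −0.55 and 0.47 for these classes, both under 1.5-fold. *Xaf1*, linked to apoptosis, had 39 and 48 UMIs, a log2 difference of 0.17 with an interval that included 0.

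Among the RNA sensors, *Ifih1* (MDA5) and *Ddx58* (RIG-I) had log2 ratios of 0.03 (−0.25 to 0.31) and 0.01 (−0.59 to 0.61). *Eif2ak2*, the kinase PKR that halts translation on double-stranded RNA, had 532 and 477 UMIs, a log2 difference of −0.29 (−0.47 to −0.11). *Trim25*, a ubiquitin ligase that acts on RIG-I, had a log2 difference of 0.13 (−0.05 to 0.31).

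None of the transcription factors of the pathway reached 1.5-fold over all cells. *Stat2*, a subunit of the complex that binds the ISRE, had 1127 and 1230 UMIs, a log2 difference of −0.01 (−0.13 to 0.11). Its partner *Irf9* had 311 and 307 UMIs, a log2 difference of −0.15 (−0.39 to 0.08), which was −0.68 when every class was given the same weight. In endothelial-like cells *Irf9* had a log2 difference of −0.63 (−1.36 to 0.07), or −0.45 by profile assignment. *Irf1*, a factor of the interferon gamma response, was highest in microglia-like cells of both libraries, at 139 and 102 CPM, and had a log2 difference of −0.31 (−0.45 to −0.17) over all cells. *Irf7*, which amplifies type I interferon production, had 385 and 339 UMIs, a log2 difference of −0.32 (−0.53 to −0.10). In tanycyte-like cells *Irf7* had 38 and 14 UMIs from 26 and 11 cells, a log2 difference of −1.44 (−2.44 to −0.52). In endothelial-like cells it had 104 and 65 UMIs, a log2 difference of −0.71 (−1.18 to −0.25), which was 0.020 by profile assignment.

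The interferon-induced transmembrane proteins *Ifitm2* and *Ifitm3* block fusion of viruses with cell membranes. *Ifitm3* stood at 1089 and 982 CPM in mural-like and 1029.6 and 1086 CPM in stromal-like cells, against 13.6 and 6.44 CPM in astrocyte-like cells. Over all cells *Ifitm2* had a log2 difference of 0.21 (0.14 to 0.29) and *Ifitm3* of 0.14 (0.08 to 0.20), and with equal weight for every class both were at or under 0 (−0.04 and −0.02). In astrocyte-like cells they moved apart. *Ifitm2* had 115 and 205 UMIs from 90 and 143 cells, a log2 difference of 0.68 (0.35 to 1.03), or 0.58 with at most 20% mitochondrial UMIs, and *Ifitm3* had 129 and 68 UMIs from 42 and 25 cells, a log2 difference of −1.07 (−1.52 to −0.64). Endothelial markers were at 104 and 114 CPM, mural markers at 86.8 and 105 CPM and stromal markers at 3.26 and 5.30 CPM in these cells, and their part was not tested. In tanycyte-like cells *Ifitm2* had 20 and 33 UMIs, a log2 difference of 0.72 (−0.12 to 1.60). In ependymal-like cells *Ifitm3* had 97 and 147 UMIs, a log2 difference of 1.20 (0.82 to 1.58), where stromal markers were at 6.63 and 33.8 CPM and their part was not tested. *Bst2* (tetherin), which holds budding virus at the cell surface, had 110 and 115 UMIs, a log2 difference of −0.07 (−0.46 to 0.32), and 0.89 when every class was given the same weight.

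*Parp9* and *Dtx3l*, encoded head to head, form a complex that modifies histones and viral proteins, and *Parp14* is a related ADP-ribosyltransferase. *Parp9* had 971 and 875 UMIs over all cells, a log2 difference of −0.28 (−0.42 to −0.15), and −0.81 (−1.68 to 0.03) and −0.76 (−1.69 to 0.11) in tanycyte-like and ependymal-like cells. The tanycyte-like value was −0.13 by profile assignment, and with every cell weighted alike the values were −1.45 and −1.40. *Dtx3l* had a log2 difference of −0.02 over all cells and −1.02 (−1.65 to −0.41) in microglia-like cells, where 69 UMIs from 59 cells stood against 35 UMIs from 35 cells. This microglia-like difference was spread over many cells, unlike that of *Ifit3*. *Parp14* had a log2 difference of −0.05 over all cells and 0.92 (0.18 to 1.70) in mural-like cells, from 22 and 56 UMIs, against −0.47 (−0.89 to −0.04) in astrocyte-like and −0.44 (−0.81 to −0.07) in microglia-like cells.

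The antigen presentation members were *Psmb8* and *Psmb9*, subunits of the immunoproteasome, and *Tap1* and *Tap2*, which carry peptides into the endoplasmic reticulum. *Psmb9* had 1246 and 1232 UMIs over all cells, a log2 difference of −0.15 (−0.27 to −0.04). It was at 88.4 and 89.1 CPM in microglia-like cells and at 97.3 and 87.0 CPM in endothelial-like cells, close values in both. In ependymal-like cells it had 132 and 40 UMIs from 49 and 22 cells, a log2 difference of −1.12 (−1.67 to −0.60). In stromal-like cells it had 12 and 38 UMIs, a log2 difference of 0.59 (−0.38 to 1.66), with 58.3% of the Control UMIs in 3 cells, and 0.39 without the 3 top cells of each library. *Tap1* had 767 and 650 UMIs over all cells, a log2 difference of −0.37 (−0.53 to −0.22), with its greatest differences in neuron-like cells, at −0.86 (−1.71 to −0.05), and oligodendrocyte precursor-like cells, at −0.74 (−1.55 to 0.03), and the neuron-like value was −0.44 with every cell weighted alike. *Psmb8*, with 29 and 24 UMIs, had a log2 difference of −0.41 (−1.25 to 0.42).

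Of the remaining members, *Gbp2* and *Igtp* are GTPases that attack vacuoles of intracellular microbes, and *Lgals3bp* is a secreted glycoprotein. *Gbp2* was highest in microglia-like cells, at 78.8 and 69.1 CPM, and had a log2 difference of −0.04 (−0.19 to 0.11) over all cells. *Igtp* had a log2 difference of −0.25 (−0.53 to 0.02), and −0.70 (−1.34 to −0.07) in endothelial-like cells with 57 and 36 UMIs, or −0.54 by profile assignment. *Lgals3bp* had 1193 and 1264 UMIs, a log2 difference of −0.05 (−0.17 to 0.06).

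By class, the share of members at least 1.5-fold lower in SC300 exceeded that over all genes in 9 of 12 classes and was 0 in the other 3. These 9 are the classes in which *Ifi27* was lower, so the counts without *Ifi27* are given after them. It was 5 of 26 measured members in astrocyte-like cells (2.11% of all genes), 6 of 8 in tanycyte-like (7.78%), 5 of 15 in ependymal-like (5.89%) and 6 of 22 in microglia-like cells (4.36%). In endothelial-like cells, where the most members could be measured, it was 5 of 29 (4.67%). In neuron-like cells it was 2 of 9 (3.55%), in oligodendrocyte precursor-like cells 2 of 5 (2.27%), in mature oligodendrocyte-like cells 1 of 3 (2.39%), and in newly formed oligodendrocyte-like cells the only measured member, *Ifi27* (4.38%). Without *Ifi27* the counts were 4 of 25 in astrocyte-like, 5 of 7 in tanycyte-like, 4 of 14 in ependymal-like, 5 of 21 in microglia-like, 4 of 28 in endothelial-like, 1 of 8 in neuron-like, 1 of 4 in oligodendrocyte precursor-like and 0 of 2 in mature oligodendrocyte-like cells. In tanycyte-like cells *Irf7* (38 and 14 UMIs), *Mx2* (33 and 20), *Parp9* (35 and 20) and *Ifi44* (41 and 19) only just passed 50 UMIs, mostly through Control. *Cmpk2* (19 and 30) and *Psmb9* (20 and 29), with more UMIs in SC300, and *Ifitm3* (31 and 15), with fewer, fell just under it. The tanycyte-like count thus depends on this minimum. In ependymal-like cells *Isg15* (57 and 12), *Rsad2* (47 and 13) and *Parp9* (41 and 16) also passed it mostly through Control. That class held 2866749 UMIs in Control and 1893832 in SC300. *Mx2* (32 and 10) and *Eif2ak2* (35 and 8), with fewer UMIs in SC300, and *Igtp* (7 and 18), with more, fell under it there. None was lower in mural-like, stromal-like or macrophage-like cells, where 18, 5 and 4 were measured and 5.69%, 8.75% and 7.68% of all genes were lower.

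Members at least 1.5-fold higher numbered 4 of 18 in mural-like cells, *Isg15*, *Rtp4*, *Parp14* and *Trim25*, where 3.88% of all genes were. In stromal-like cells they were *Psmb9* and *Lgals3bp* (11.8% of all genes) and in macrophage-like cells *Ifit2* (19.2%). These calls passed the UMI minimum mostly through SC300, *Psmb9* and *Ifit2* only just. Stromal-like cells held 275835 UMIs in Control and 581070 in SC300, and macrophage-like cells 124212 and 393427. The counts of higher members in both classes thus depend on this minimum. In mural-like cells, with 785323 and 1058583 UMIs, *Rtp4*, *Parp14* and *Trim25* also passed it mostly through SC300, which limits that count too. *Trim25* was there at 0.60 with an interval that included 0, and at 0.47 with every cell weighted alike. *Isg15* in mural-like cells was at 0.01 without the 3 top cells of each library. The remaining 3 higher calls were *Ifitm2* in astrocyte-like cells (3.23%), *Ifitm2* in tanycyte-like cells (5.71%) and *Ifitm3* in ependymal-like cells (2.89%). None was higher in endothelial-like (4.12% of all genes), microglia-like (2.31%), neuron-like (2.89%), oligodendrocyte precursor-like (2.25%), newly formed (2.68%) or mature oligodendrocyte-like cells (2.85%). When cells with at least 3 detected markers of a second class were left out, 85 combinations could be measured, 21 of them lower and 1 higher. The share over all gene and class combinations is not given for that setting. The mural-like cells with these calls also carried endothelial RNA, with endothelial markers at 8129 and 7686 CPM.

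The classes with the highest levels were mostly vascular or myeloid in both libraries. Of 35 members, 17 were highest in endothelial-like cells in Control and 12 in SC300, and 6 and 3 in microglia-like cells. Macrophage-like cells were highest for 5 and 10 members, mural-like cells for 5 and 6, and stromal-like cells for 1 and 3, with few cells in each. For most members of either library the counting interval of the highest class overlapped that of the next. Differences between the libraries in these counts were therefore not read. No member was highest in astrocyte-like, tanycyte-like, neuron-like or any oligodendrocyte class in either library.

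The antiviral genes were also counted cell by cell. At least 3 of the 19 were detected in 490 of 4296 Control cells (11.4%, 10.5% to 12.4%) and in 440 of 4379 SC300 cells (10.0%, 9.17% to 10.98%). With each cell thinned to 2000 UMIs, which left out 369 and 189 shallower cells, the shares were 2.24% (1.80% to 2.75%) and 1.12% (0.825% to 1.49%).

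Endothelial-like cells showed 3 or more antiviral genes in 42.3% of Control and 47.3% of SC300 cells, at a median of 5918.5 and 7062.5 UMIs. After thinning these were 14.0% (10.2% to 18.7%) and 6.64% (3.84% to 10.6%), the opposite order, and no order was read from the unthinned shares. In microglia-like cells the shares were 5.57% and 5.52%, and 2.54% (1.27% to 4.50%) and 0.465% (0.0564% to 1.67%) after thinning. Mature oligodendrocyte-like cells, at a median of 20141.5 and 20879 UMIs, reached 0.282% and 1.32%, and 0 of 349 and 0 of 452 cells after thinning. They were deeper than the endothelial-like cells and yet lower in this share. The 6 SC300 cells with at least 3 antiviral genes held endothelial markers at 1106 CPM against 9.50 CPM in the rest. Microglial markers were at 224 against 53.7 CPM there. In the 1 such Control cell the values were 38.8 against 19.9 CPM and 38.8 against 52.0 CPM. The part of these markers was not tested.

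**Figure D4:**
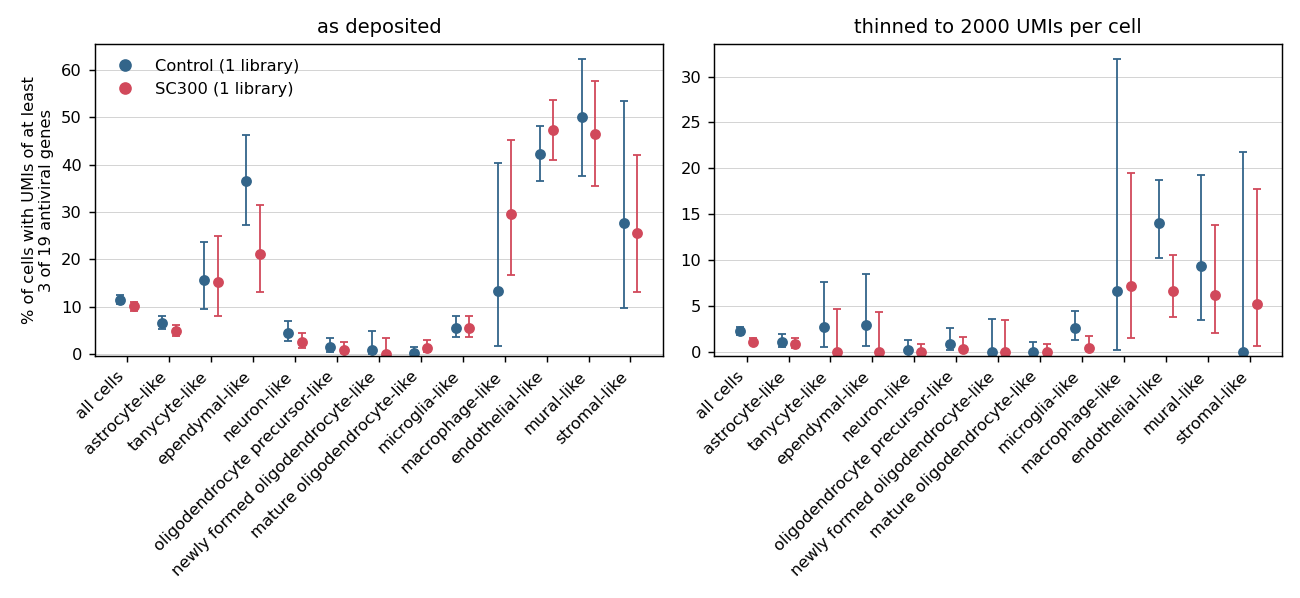
Percent of cells with UMIs of at least 3 of 19 antiviral genes by class in both libraries, as deposited and with each cell thinned to 2000 UMIs, with exact 95% Clopper-Pearson intervals. As deposited, mural-like and endothelial-like cells are the highest 2 classes in both libraries, and after thinning the endothelial-like share is 14.0% in Control and 6.64% in SC300.

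The members that were not used in that count were then compared within a class, between cells with at least 3 antiviral genes and the rest, here as log2 of the level in the former over that in the latter. In Control astrocyte-like cells, 80 cells against 1136, 11 of 13 measured other members were higher with an interval above 0 and none was lower, with a median log2 difference of 2.05. In SC300 astrocyte-like cells, 65 against 1285, 12 of 13 were higher, with a median of 1.38. The cells with at least 3 were deeper, with a median of 14455 UMIs in Control and 14237 in SC300 against 6294.5 and 6498 in the whole class, and after thinning 12 of 1104 and 11 of 1293 cells had at least 3. The part of depth in this comparison was not tested. The share of all genes higher in such cells was not computed. The counts of higher members, here and in the classes below, are therefore not set against a share or read as results about the members. The intervals take UMIs as independent, also those of the same cell.

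In the cells with at least 3 antiviral genes *Ifitm3* was at 70.8 CPM against 6.17 CPM in the rest of the Control astrocyte-like cells, a log2 difference of 3.52 (2.99 to 4.06). *Lgals3bp* stood at 57.0 against 8.43 CPM, a log2 difference of 2.76 (2.24 to 3.27), *Tap1* at 2.37 (1.88 to 2.85) and *Ifi27* at 1.48 (1.38 to 1.57). In SC300 the same genes had log2 ratios of 3.45, 3.20, 2.25 and 1.16. Endothelial markers were lower in these cells than in the rest, 54.2 against 109.9 CPM in Control and 67.9 against 119 CPM in SC300, microglial markers were at 34.0 against 42.5 CPM and 46.6 against 44.0 CPM, and mural markers were higher, 106 against 84.4 CPM and 134 against 102 CPM. Stromal markers were at 9.19 against 2.49 CPM in Control and 4.05 against 5.43 CPM in SC300, and the part of these markers was not tested.

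In microglia-like cells 10 of 11 other members were higher in the 26 Control cells with at least 3 antiviral genes, and 7 of 11 in the 25 SC300 cells. *Gbp2* led in Control with 237 against 65.8 CPM, a log2 difference of 1.85 (1.42 to 2.26), and was at 121 against 65.2 CPM in SC300, a log2 difference of 0.90 (0.29 to 1.45). In endothelial-like cells, where these transcripts are common, 6 of 14 and 5 of 13 were higher, with medians of 0.30 and 0.32. *Ifi27* there differed by 0.17 (0.09 to 0.25) and 0.32 (0.21 to 0.44). Mural-like cells were mixed. In Control, 34 cells against 34, 1 of 3 other members was higher and 2 were lower, *Ifitm2* at −0.63 and *Ifitm3* at −0.30. In SC300, 39 against 45, 4 of 7 were higher and 1 was lower, *Ifitm2* at −0.39. In tanycyte-like cells only *Ifi27* was measured, at 0.52 (0.30 to 0.73) in Control and 0.46 (−0.12 to 1.03) in SC300.

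**Figure D5:**
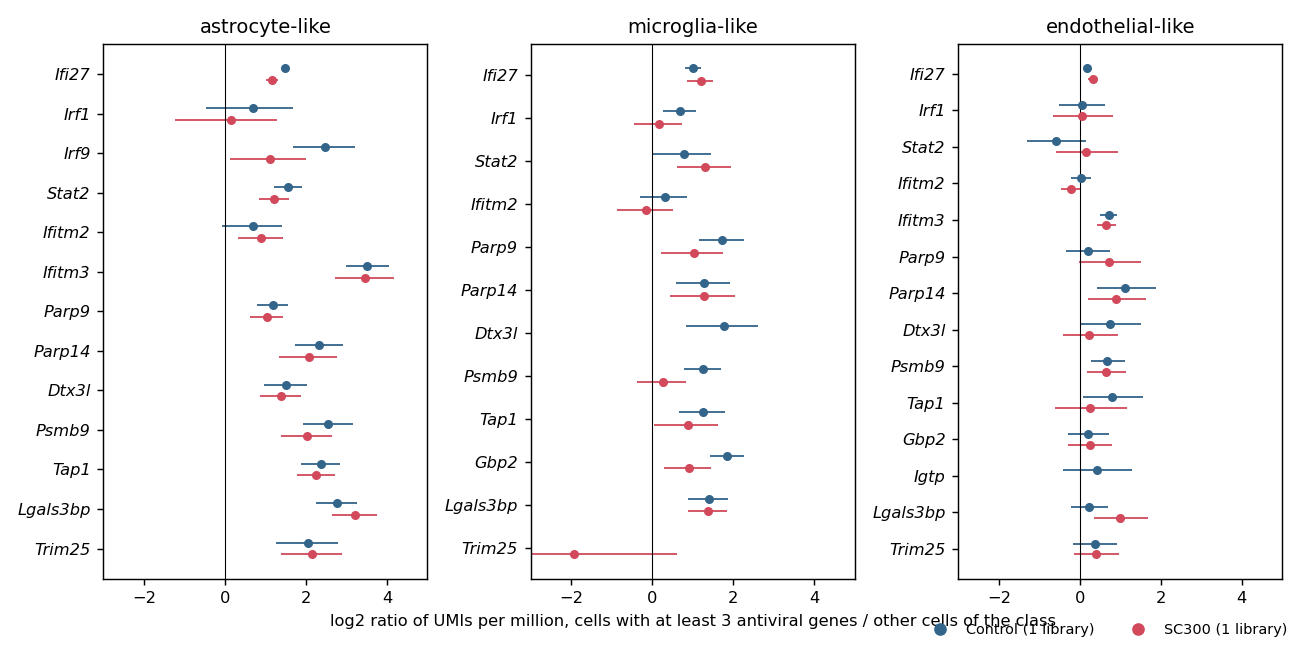
Log2 ratio of CPM between cells with at least 3 of 19 antiviral genes and the other cells of the class, for members outside those 19, in both libraries with exact 95% intervals (the interval of *Trim25* in microglia-like cells runs past the axis). In astrocyte-like cells *Ifitm3* is at 3.52 in Control and 3.45 in SC300, and in endothelial-like cells the points lie closer to 0.

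The cells with the most antiviral UMIs were single cells of several classes. In Control the first was a microglia-like cell with 253 antiviral UMIs and 15 of the 19 genes, among them 67 of *Isg15*, 62 of *Ifit2* and 74 of *Ifit3*. The second was an astrocyte-like cell with 202 antiviral UMIs, of which 65 were *Rsad2* and 59 *Isg15*. In SC300 the first, which met no class, held 267 antiviral UMIs of 17 genes, and the second, a mural-like cell, held 201 of 15 genes. Such cells were found in both libraries and in several classes. Astrocyte-like cells stood at ranks 2, 3, 7 and 8 in Control and at ranks 5, 6, 7 and 8 in SC300.

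The wider pathway was measured from lists of genes that act around the members. Of 43 genes of interferon signalling (ligands, receptors, kinases and factors, sensors and adaptors, inhibitors and nucleases), 40 were found under their listed names and 30 had 50 UMIs. Among these none was lower by 1.5-fold, where 3.75% of all genes were. *Socs3*, an inhibitor of JAK kinases, was higher with 21 and 40 UMIs, a log2 difference of 0.80 (−0.001 to 1.63), where 2.77% of all genes were higher. In a list of 30 genes, counts this small do not set it apart from all genes. The receptor subunits *Ifnar1* and *Ifnar2* had log2 ratios of −0.03 (−0.11 to 0.06) and −0.14 (−0.28 to −0.01). The median over the 30 genes was −0.07. None of the 7 ligand genes found reached 50 UMIs, and the listed names without a match were not analysed here.

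Of 9 genes of MHC class I presentation outside the RT1 complex none differed by 1.5-fold, where 3.75% of all genes were lower and 2.77% higher. *B2m*, the light chain, had a log2 difference of −0.06 (−0.08 to −0.05). Of 15 measured RT1 genes, the rat MHC, 3 were lower and 3 were higher, where 3.75% and 2.77% of all genes were. *RT1-A1* had 5346 and 213 UMIs, a log2 difference of −4.78, and *RT1-T24-4* and *RT1-S3* had −2.96 and −1.08. *RT1-T24-3*, *RT1-Db1* and *RT1-Ba* had 0.89, 0.85 and 0.63. The RT1 list took every gene with that prefix and was not limited to MHC class I. RT1 genes are near-identical and polymorphic, so that the assignment of reads to each is uncertain. Markers of T or NK cells summed to 7.94 and 5.76 CPM, those of B cells to 0.272 and 1.10 CPM and those of neutrophils to 6.27 and 4.29 CPM, with at most 6 cells of either library holding 3 markers of any of these lists, and their part in the results above was not tested.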

How the data were processed

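Droplet-based 3′ RNA sequencing had been run on hypothalamic cells, 1 library per condition. The authors aligned reads to the Ensembl rat transcriptome with Cell Ranger (version 3.0.1 per the file headers) and deposited UMI counts per gene and cell, without normalization. The members, the lists and the markers were chosen with earlier results of these data known.

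Barcodes with at least 200 detected genes were kept. For each class, UMIs of its markers were scaled to CPM, 100 CPM was added, and the sum was divided by its mean over all cells. A cell took the class with the highest value where at least 3 markers were detected and the next class lay at least 1.5-fold lower. Barcodes with at least 5% haemoglobin UMIs were set apart. Between 0 and 67 cells of a class lay within 1.5- to 2-fold of the next, and up to 46 ungated cells within 1.25- to 1.5-fold. Doublets were not called, and cells with at least 3 markers of a second class were left out as an alternative.

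UMIs were summed per gene, class and library and scaled to CPM, which needs no length correction for 3′ tags. Genes with at least 50 UMIs over both libraries were compared as log2 ratios. A call is a 1.5-fold difference. Exact 95% intervals were taken from the Poisson distribution for levels, by Clopper and Pearson for percentages of cells, and from the binomial distribution of the SC300 UMIs given the total for ratios, and a count of 0 was set to 3 UMIs. Cells with several antiviral genes were counted with and without thinning to 2000 UMIs. Every member over 50 UMIs was named with its ratio, and values by class were given for those at least 1.5-fold apart over all cells or in 2 classes. The scripts recovered known ratios in simulated counts. Python 3.11.15, numpy 2.4.6, pandas 2.3.3 and scipy 1.17.1 were used. Alternatives covered other gates, weights, totals, filters and minimum counts. Promoters came from RefSeq (GRCr8). The build of the count tables was not given in the sources used here, so no position was joined to them.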

Additional observations from a re-analysis of the deposited data

Results flagged for a closer look

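For 4 members the direction differed between classes, with values at least 1.5-fold lower in 1 class and at least 1.5-fold higher in another, and counting intervals that left out 0 for both. With 1 library per condition these differences between classes were not tested. *Isg15* had log2 ratios of −0.68 in astrocyte-like, −2.22 in tanycyte-like, −1.65 in ependymal-like and −2.03 in microglia-like cells, and of 1.34 in mural-like cells, where the ratio was 0.01 without the 3 top cells of each library. *Ifit2* had −1.24 in microglia-like and 2.31 in macrophage-like cells, the latter from 3 Control UMIs. *Ifitm3* had −1.07 in astrocyte-like and 1.20 in ependymal-like cells, and without the 3 top cells of each library these were −1.07 and 1.04. *Rtp4* had −0.66 in microglia-like and 0.91 in mural-like cells. Intervals on both sides of 0, without such calls in both directions, were also found for *Parp14* (−0.47 in astrocyte-like, 0.92 in mural-like cells), *Lgals3bp* (−0.47 in endothelial-like, 0.42 in ependymal-like cells) and *Ifitm2* (−0.22 in mural-like, 0.68 in astrocyte-like cells), which makes 7 members with intervals on both sides.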

How the results depend on the processing

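No paired analysis was possible because each condition is 1 library. Over all cells 4 members were lower, and this count was between 3 and 6 under all 9 alternatives. The 1 member that was higher became 3 with the same weight for every class, *Mx1* (0.90) and *Bst2* (0.89) being added. With that weighting *Rsad2* (−0.55) left the lower members, *Irf9* (−0.68) and *Usp18* (−0.80) joined them, and the log2 difference of *Ifit1* was 0.12, a reversal. The 33 lower combinations of member and class became 21 when cells with markers of a second class were left out, where fewer combinations could be measured, and 57 with at least 20 UMIs, where more could. The 10 higher combinations became 5 with a stricter gate, 1 without cells with markers of a second class, 6 with at most 20% mitochondrial UMIs and 25 with at least 20 UMIs. Shares over all genes are given here for the main setting only. The counts under alternatives were therefore not set against a share, and are not read as results about the members. *Irf7* in endothelial-like cells reversed to 0.020 by profile assignment, the cause of which was not tested. The share of cells with at least 3 antiviral genes, 11.4% in Control and 10.0% in SC300, became 2.24% and 1.12% after thinning to 2000 UMIs, 20.8% and 18.5% with at least 2 genes, and 6.91% and 6.49% with at least 4. Of 48 single values at least 1.5-fold apart, 46 kept their sign under every alternative that gave a value and 32 stayed past 1.5-fold. Combinations under 50 UMIs were not compared, and the interval left out 0 in 21 of these 299. In the mural-like, tanycyte-like and newly formed oligodendrocyte-like classes few or no cells were left without second-class markers.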

Other observations

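Haemoglobin-rich barcodes, which entered no class, held 1605 *Ifi27* UMIs in 124 Control barcodes and 1163 in 103 SC300 barcodes, or 1437 and 969 CPM with haemoglobin left out of the total. The remaining members summed to 1649 and 1772 CPM in the same barcodes. Among relatives of the members that are not on the list, *Oas1e* was at least 1.5-fold lower in SC300, with 65 and 43 UMIs, a log2 difference of −0.73 (−1.32 to −0.15). *Ifi44l* was higher, with 28 and 57 UMIs, a log2 difference of 0.89 (0.21 to 1.60), while *Ifi44* itself was at −0.48. *Ifitm10* was also higher, with 47 and 94 UMIs, a log2 difference of 0.87 (0.35 to 1.40), and *Dhx58*, a relative of the RNA sensors, was at −0.57 (−0.76 to −0.37). These 4 genes, of which *Dhx58* is from the wider pathway lists, were chosen after their values were seen. The other measured relatives did not reach 1.5-fold. They were *Gbp7* (−0.55), *Oas1k* (−0.34), *Oasl2* (−0.27), *Ifi27l2b* (−0.15), *Gbp5* (−0.01), *Ifit1bl* (0.13), *Gbp4* (0.15) and *Ifitm1* (0.29). Over all genes 3.75% were lower and 2.77% higher.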
